A study of Mus musculus with 3 samples.

Results

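The mouse miRNAs mmu-miR-5126, mmu-miR-3963 and mmu-miR-709 (miR-5126, miR-3963 and miR-709 below) gave some of the brightest signals in matrix vesicles (MVs) of osteoblastic cells, and they are 3 of the 1079 mouse miRNAs on the array. They were chosen by their signals, which were among the 10 highest, so their levels, places and shares are given as a description with no test. The conserved miRNAs let-7c-5p and miR-125b-5p serve as 2 comparators on the same arrays. MVs came from MC3T3-E1 cells, an established osteoblastic line derived from mouse calvaria, after osteoid-like nodules had formed in osteogenic medium. The sample labels give β-glycerophosphate as part of that medium, whereas the study's methods describe MV collection from cultures that lacked it. The matrix was digested with collagenase at 500 units/mL, MVs were pelleted by ultracentrifugation, and 100 ng of total RNA from each of 3 independent isolations was labeled with Cy3 for 1 array. The 3 arrays form 1 group of 1 cell line, and a group of parent cells was not analysed here, so nothing below compares MVs with the cells that shed them.

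miRNAs are short RNAs cut from hairpin precursors that guide Argonaute proteins to partly complementary mRNAs, mainly through the seed, bases 2 to 8 of the mature strand. Osteoblasts shed MVs into the matrix they lay down, where MVs are known for the first steps of mineral deposition. let-7c-5p belongs to the let-7 family, which is conserved across animals and restrains proliferation genes, and miR-125b-5p is a mammalian relative of the worm timing miRNA lin-4. miR-709 is described in rodents and is known as a largely nuclear miRNA that binds the primary transcript of the miR-15a/16-1 cluster. No role is stated here for miR-5126 or miR-3963.

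miR-709 had no sequence in the RefSeq table, so its composition, seed and hairpin are not given. The mature strands of the bright miRNAs miR-5126 and miR-3963 and of both comparators are shown because their base composition differs widely. They are from RefSeq (GRCm38.p6), written 5′ to 3′ with the seed in capitals.
miR-5126: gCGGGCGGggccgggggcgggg
miR-3963: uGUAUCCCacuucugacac
let-7c-5p: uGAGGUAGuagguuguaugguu
miR-125b-5p: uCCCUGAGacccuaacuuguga

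miR-5126 consisted of G and C alone, with 77.3% G and a longest run of 5 G. Among 1679 mature mouse sequences in the RefSeq table, it was the one with the highest GC content and also the one with the highest G content; the medians were 52.2% GC and 26.9% G. miR-3963 was low in G, with 10.5% G and no 2 adjacent G. Its GC content of 47.4% was nearer the median, with 538 of the 1679 sequences lower and 1137 higher. Only 149 of the 1679 sequences had less G. At 19 bases it was also shorter than 1627 of them. Neither miRNA shared its seed, or any run of 12 bases, with another mature sequence of the table. By contrast, 10 other mature sequences had the seed of let-7c-5p, 9 of them with a feature on the array, and 4 had the seed of miR-125b-5p, 2 of them on the array.

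The RefSeq hairpins of both miRNAs are shown for where the mature strand, in capitals, lies in its precursor.
Mir5126: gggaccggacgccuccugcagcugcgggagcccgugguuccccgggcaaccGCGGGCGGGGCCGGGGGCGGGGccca
Mir3963: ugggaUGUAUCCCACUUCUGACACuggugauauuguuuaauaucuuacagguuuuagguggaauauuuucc

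In the precursor of miR-5126, the mature strand took bases 52 to 73 of 77, which is the 3′ arm. The whole hairpin was 83.1% GC, above 1003 of the 1005 mouse hairpins of the table. Its predicted minimum free energy was -48.4 kcal/mol, or -62.9 per 100 bases, and 32 of the 1005 hairpins had a lower value. The mature strand of miR-3963 took bases 6 to 24 of 71, on the 5′ arm. That hairpin was 36.6% GC and had a predicted energy of -22.5 kcal/mol, or -31.7 per 100 bases, with 840 of the 1005 hairpins lower. The median hairpin was 51.7% GC and had -40.6 kcal/mol per 100 bases, so the 2 precursors lay on either side of it in both measures.

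In GRCm38.p6, mature miR-5126 lies at chr1:84695890-84695911 on the plus strand. Its gene, Mir5126, is inside the protein-coding gene Dner, which encodes a transmembrane relative of Notch ligands, on the opposite strand and 306 bases from the end where Dner starts. Mature miR-3963 lies at chr3:151023839-151023857 on the minus strand. No other annotated gene overlaps Mir3963, and the nearest protein-coding gene, Adgrl4, is 414 kb away. Mir709 lies inside Rfx1, which encodes a DNA-binding transcription factor. None of the 3 genes had another annotated miRNA gene within 10 kb. The same was true of both genes of miR-125b-5p, with Mirlet7a-2 45.1 kb from Mir125b-1 and Mirlet7c-1 46.5 kb from Mir125b-2. Of the let-7c-5p genes, Mirlet7c-1 lies 0.657 kb from Mir99a and Mirlet7c-2 lies 0.622 kb from Mirlet7b. Exons and introns were not analysed here.

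Isolation 1 stood apart from the others, and every result below is therefore given by isolation. The software called 86 mouse miRNAs detected there, against 179 in isolation 2 and 164 in isolation 3, and the summed signal of the detected miRNAs was 13558, 42478 and 35179, respectively. The median signal of a detected miRNA differed much less (28.3, 34.0 and 30.1), but these medians are over different sets of miRNAs. Over the same 84 miRNAs, those detected in all isolations, the median log2 change from isolation 1 was 1.37 for isolation 2 and 0.87 for isolation 3. Of 6 miRNAs taken as marks of mesenchymal cells, 3 were detected in isolation 1 and 4 in isolations 2 and 3, with a summed signal of 37.2, 706.1 and 544.2. miR-143-3p and miR-145a-5p, both known from mesenchymal cells, were not detected in any isolation. The miRNAs listed for leukocytes (3), red blood cells (1), liver (1) and neurons (2) were not detected on any array, and of 3 muscle miRNAs only miR-206-3p was, at log2 signals of 2.95, 5.22 and 4.44. The part of these differences in the results was not tested.

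miR-5126, miR-3963 and miR-709 were each detected in all 3 isolations, as were 84 of the 1079 mouse miRNAs (7.78%); the choice by signal fixes this. Signals of miR-5126 were 1780.5, 3104.5 and 2407.7 in isolations 1, 2 and 3. On the log2 scale this was 10.80, 11.60 and 11.23, with a mean of 11.21 ± 0.40 (SD, n = 3). The lowest and highest isolations differed 1.74-fold. Of the 84 miRNAs detected in all isolations, 18 had a smaller SD of log2 signal, and the median SD was 0.74.

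miR-3963 had nearly the same mean, 11.20, with an SD of 1.69 (n = 3). Its signal was 628.7, 5939 and 3495.2, or 9.30, 12.54 and 11.77 on the log2 scale. Isolation 1 was the low one, 9.45-fold below isolation 2. Of the 84 miRNAs, 74 had a smaller SD. The similar means of miR-5126 and miR-3963 thus covered opposite orders in single isolations.

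miR-709 was dimmer, at 255.7, 625.5 and 447.9. The log2 signal was 7.998, 9.29 and 8.81, with a mean of 8.70 ± 0.65 (SD, n = 3), and 36 of the 84 miRNAs had a smaller SD. All 3 bright miRNAs were lowest in isolation 1 and highest in isolation 2.

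The comparators were also lowest in isolation 1 and highest in isolation 2. The range of let-7c-5p was wider than that of each bright miRNA, and that of miR-125b-5p was slightly narrower than that of miR-3963 (3.09 and 3.24 log2 units). let-7c-5p gave 26.6, 373.0 and 300.1, and its log2 SD of 2.11 was among the largest, with 79 of the 84 miRNAs below it. miR-125b-5p gave 47.6, 405.5 and 271.0, with a log2 SD of 1.64. The arrays were not normalized to each other, and the part of the lower signal of isolation 1 as a whole was not tested. With array signals of vesicle RNA, fewer vesicles that hold a miRNA and fewer copies in each vesicle also cannot be told apart.

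**Figure D1:**
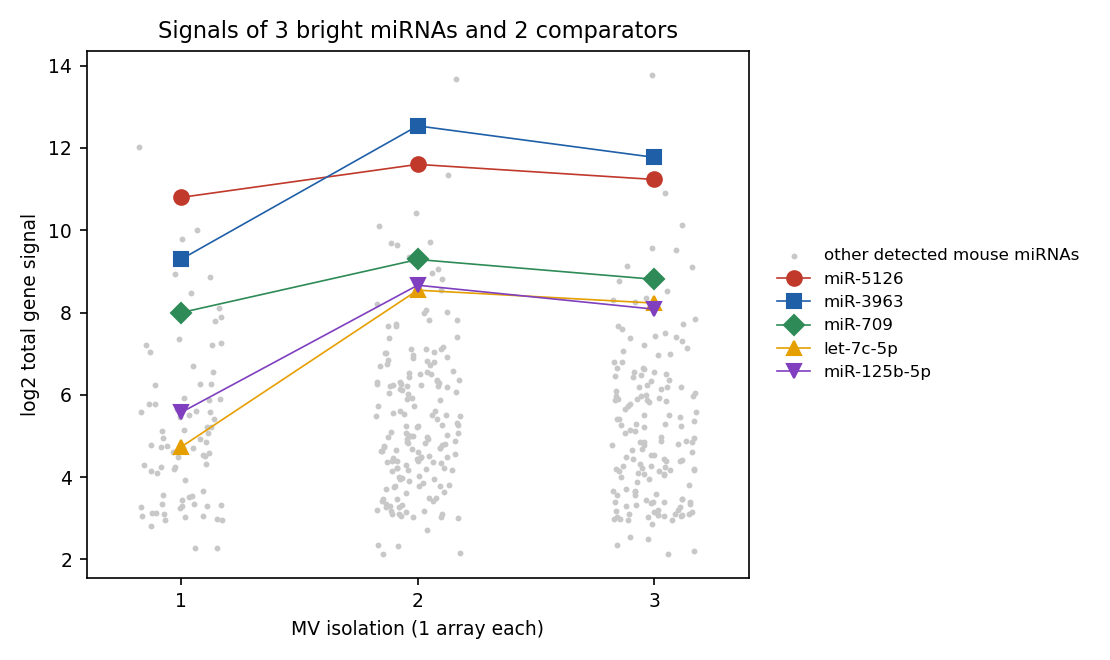
Log2 total gene signal (vertical axis) of miR-5126, miR-3963, miR-709, let-7c-5p and miR-125b-5p in each of the 3 MV isolations (horizontal axis), with the other detected mouse miRNAs as grey points spread sideways at random; thin lines join the values of 1 miRNA and imply no order of isolations. miR-5126 lies above miR-3963 in isolation 1 (10.80 and 9.30) and below it in isolation 2 (11.60 and 12.54).

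By place in the order of signals within an array, miR-5126 stood at place 2 of 86 in isolation 1 and at place 3 in both others. miR-3963 stood at place 5 in isolation 1 and at place 2 in isolations 2 and 3. The feature above them at place 1 was miR-5109 on every array, and it was not among the chosen miRNAs. miR-709 held places 10, 11 and 10, so that in isolation 2 it fell just outside the 10 highest signals. let-7c-5p was at places 46, 17 and 16, and miR-125b-5p at places 32, 15 and 17.

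The edge of the choice ran through a group of close signals. In isolation 1 the miRNAs at places 10 and 11 were miR-709 (255.7) and miR-211-3p (238.7). In isolation 2 they were miR-1187 (651.5) and miR-709 (625.5), and in isolation 3 miR-709 (447.9) and miR-1187 (434.6). At each of these borders the signals lay within the sum of their array errors. miR-5126 and miR-3963 were further from their neighbors. For both, on every array, the gap to the next miRNA above and the next below was larger than the sum of the 2 errors, the narrowest being the 0.26 log2 units between miR-5126 and miR-466i-5p in isolation 2.

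Together, the 3 bright miRNAs took 19.7%, 22.8% and 18.1% of the summed signal of detected mouse miRNAs in isolations 1, 2 and 3 (20.2% ± 2.39, SD, n = 3). The SD of the joint share was smaller than those of miR-5126 and miR-3963 alone. miR-5126 took 13.1%, 7.31% and 6.84% (9.09% ± 3.5), with its largest share in isolation 1. miR-3963 took 4.64%, 14.0% and 9.94% (9.52% ± 4.69), with its smallest share there. The shares of miR-709 were 1.89%, 1.47% and 1.27% (1.54% ± 0.31). let-7c-5p and miR-125b-5p took 0.548% together in isolation 1, 1.83% in isolation 2 and 1.62% in isolation 3. The signal of the 3 bright miRNAs was therefore 35.9-fold that of both comparators in isolation 1, 12.4-fold in isolation 2 and 11.1-fold in isolation 3. The largest part of each sum was miR-5109, which was not among the chosen miRNAs. It took 30.94%, 30.54% and 39.96% in isolations 1, 2 and 3. Its signal was 4194.25, 12972.6 and 14058.5, so its rise from isolation 1 was larger than that of each bright miRNA. Of the difference in summed signal between isolations 2 and 1, miR-3963 made up 18.4%, miR-5126 4.58% and miR-709 1.28%. Between isolations 3 and 1 these parts were 13.3%, 2.90% and 0.889%.

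**Figure D2:**
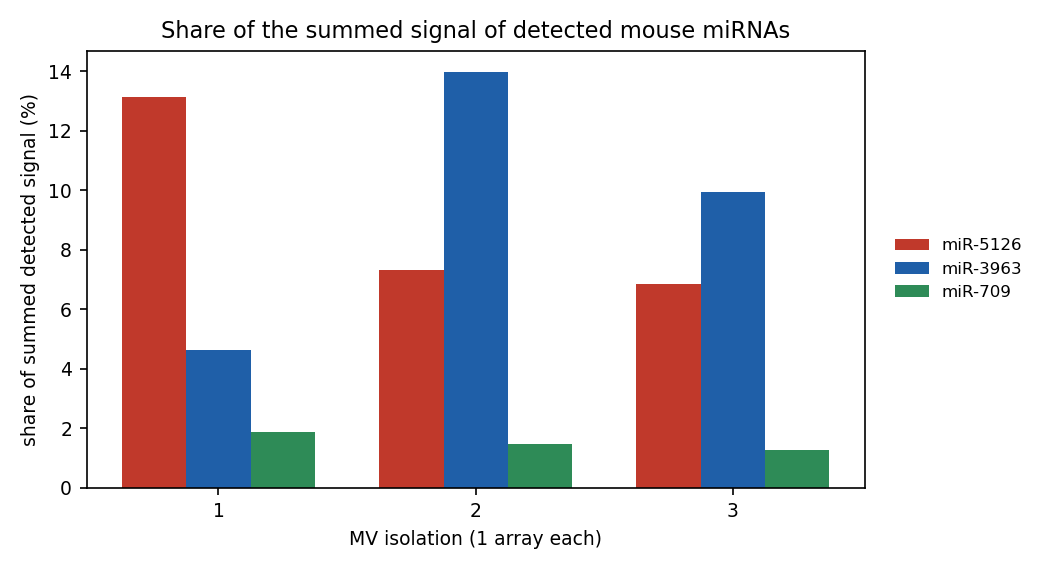
Share of the summed signal of detected mouse miRNAs (vertical axis, percent, from 0) taken by miR-5126, miR-3963 and miR-709 in each MV isolation (horizontal axis, 1 array each, so bars carry no error). miR-5126 has the tallest bar in isolation 1 (13.1%) and miR-3963 in isolations 2 (14.0%) and 3 (9.94%).

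The error that the software gives for a signal was a small fraction of it for the bright miRNAs, and nearly fixed for miR-5126 and miR-3963. For miR-5126 the errors were 126.4, 220.6 and 171.1, or 7.10%, 7.10% and 7.11% of the signals. Of the 84 miRNAs detected in all isolations, none varied less in this ratio. The level of the ratio was shared with other miRNAs. Counting miR-5126 itself, 3 of 86, 8 of 179 and 4 of 164 detected miRNAs lay within 0.1 percentage points of it. For miR-3963 the ratio was 7.85%, 7.88% and 7.90%. For miR-709 it was 8.72%, 8.26% and 8.39%, and 17 of the 84 miRNAs varied less. The median over detected miRNAs was 13.4%, 11.6% and 12.8%. Over those with a signal of 100 or more (18, 44 and 34 miRNAs), the medians were 7.46%, 7.81% and 7.70%. All 3 miRNAs belong to these sets, so the medians include them and their place within the range is fixed. In isolation 1 miR-709 itself set the upper end of the range (8.72%). let-7c-5p and miR-125b-5p had ratios of 13.5% and 11.2% in isolation 1, where they were dim, and from 8.48% to 9.44% in the others.

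This ratio is given for 1 array, and the spread between isolations was far wider. The array errors of isolations 1 and 2 amounted to 0.14 log2 units for the difference of miR-5126 between them, 0.16 for that of miR-3963 and 0.17 for that of miR-709. The differences themselves were 0.80, 3.24 and 1.29 log2 units.

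**Figure D3:**
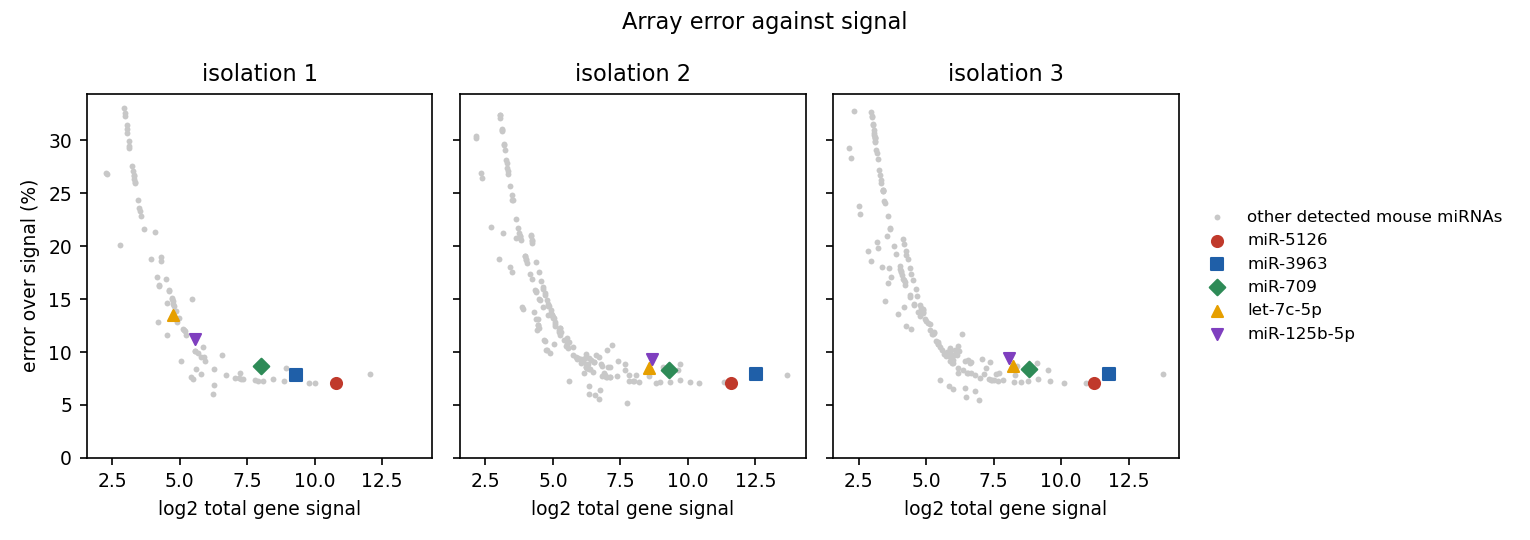
Error over signal in percent (vertical axis, from 0) against log2 total gene signal (horizontal axis), 1 panel for each MV isolation and 1 point for each detected mouse miRNA. The ratio falls with signal and levels off; miR-5126 stays near 7.10% and miR-3963 near 7.88% on every array, while let-7c-5p and miR-125b-5p are higher in isolation 1 (13.5% and 11.2%).

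Within each array, the order of signals was asked of the 3 bright miRNAs and the comparators. Differences between miRNAs are of signals and not of RNA amounts, because probes differ in their response. In isolation 1 the order was miR-5126, miR-3963, miR-709, miR-125b-5p, let-7c-5p. In isolation 2 miR-3963 and miR-5126 exchanged places, and in isolation 3 let-7c-5p also stood above miR-125b-5p. miR-709 stood after miR-5126 and miR-3963 and before both comparators on each array. miR-5126 was 2.83-fold brighter than miR-3963 in isolation 1, while miR-3963 was 1.91-fold and 1.45-fold brighter in isolations 2 and 3. On the log2 scale, miR-5126 minus miR-3963 was 1.502, -0.94 and -0.54 (0.0094 ± 1.31, SD, n = 3), a mean of differences of opposite sign. miR-5126 minus miR-709 was much steadier, at 2.80, 2.31 and 2.43 (2.51 ± 0.26).

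Against miR-125b-5p, miR-3963 kept nearly the same distance on all arrays. The log2 difference was 3.72, 3.87 and 3.69 (3.76 ± 0.10, SD, n = 3), which is 13.2-fold, 14.6-fold and 12.9-fold. The spread of this difference was smaller than the array error of each single difference (0.20, 0.18 and 0.18). miR-5126 minus miR-125b-5p was 5.22, 2.94 and 3.15 (3.77 ± 1.26), and thus had nearly the same mean with a far larger spread. Without isolation 1 the means differed, at 3.04 for miR-5126 and 3.78 for miR-3963. miR-709 minus miR-125b-5p was 2.43, 0.63 and 0.73 (1.26 ± 1.01). Without isolation 1 the last mean was 0.68.

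Against let-7c-5p, miR-3963 stood 4.56, 3.99 and 3.54 log2 units higher (4.03 ± 0.51, SD, n = 3). For miR-5126 the difference was 6.06, 3.06 and 3.00 (4.04 ± 1.75). For miR-709 it was 3.26, 0.75 and 0.58 (1.53 ± 1.504), with a mean of 0.66 without isolation 1. All 3 bright miRNAs were above both comparators on each array, which the choice by signal favors.

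**Figure D4:**
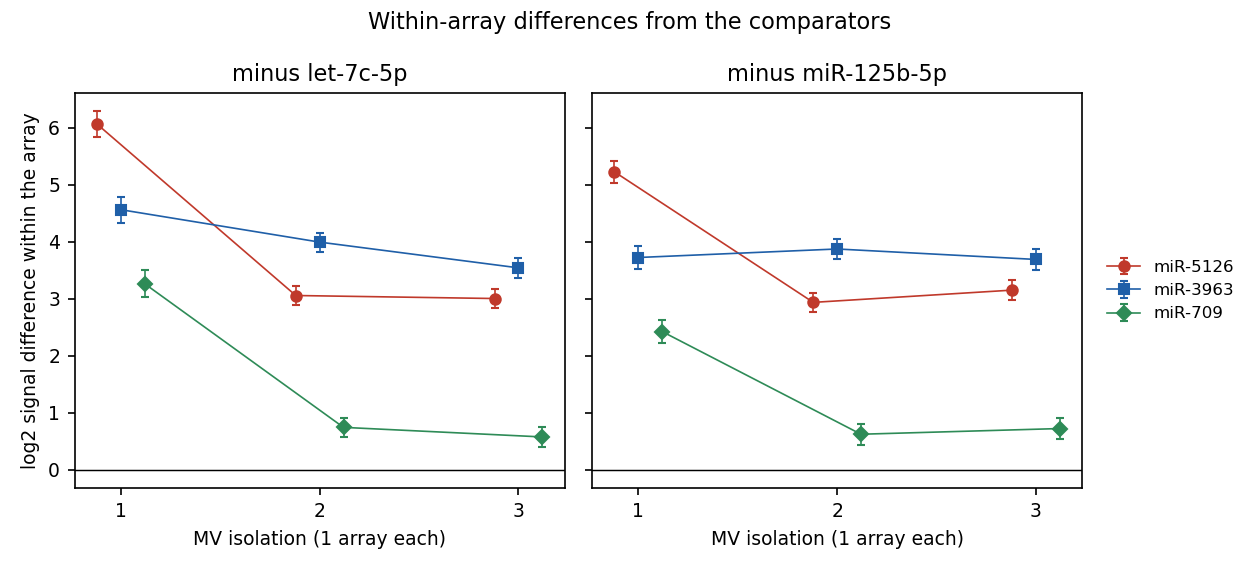
Within-array difference in log2 signal (vertical axis) of miR-5126, miR-3963 and miR-709 from let-7c-5p (left) and from miR-125b-5p (right) in each MV isolation (horizontal axis); bars are the combined array error of the 2 signals, and thin lines join the values of 1 miRNA. miR-3963 minus miR-125b-5p stays between 3.69 and 3.87, while miR-5126 and miR-709 lie farthest above both comparators in isolation 1.

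Between isolations, the signal of miR-3963 changed more than those of miR-5126 and miR-709. From isolation 1 to isolation 2 its log2 signal was higher by 3.24, and only 7 of the 84 miRNAs detected in all isolations had a larger difference. The median was 1.37. The 7 were miR-199a-3p, miR-21a-5p, miR-22-3p, let-7a-5p, let-7c-5p, miR-199b-5p and miR-3968, named after their values were seen, and none of them exceeded a log2 signal of 8.54 in isolation 2. miR-199a-3p and miR-21a-5p, both from the mesenchymal list, differed by 4.50 and 4.34, and miR-214-3p of the same list by 3.17. For miR-5126 the difference was 0.80, with 63 of the 84 miRNAs above it, and for miR-709 it was 1.29, near the median.

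From isolation 1 to isolation 3 the same picture held, with 2.47 for miR-3963, 0.44 for miR-5126 and 0.81 for miR-709 against a median of 0.87. Both pairs share isolation 1. Isolation 3 minus isolation 2, which does not involve it, gave -0.37 for miR-5126, -0.76 for miR-3963 and -0.48 for miR-709, with a median of -0.36. Here miR-3963 was at the low end, with 14 of the 84 miRNAs below it, and the array error of its difference was 0.16.

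With the median change of the 84 miRNAs subtracted, the sign of the change from isolation 1 to isolation 2 turned for 2 of the 3 miRNAs. It was then -0.57 log2 units for miR-5126 and -0.081 for miR-709, the latter within its array error of 0.17, whereas that of miR-3963 was 1.87. A change in level between isolations is thus stated here only as a change in signal on unscaled arrays.

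Of the 12 miRNAs that stood at places 1 to 11 of any isolation, only miR-3963 and miR-5100 differed by more than 2 log2 units between isolations 2 and 1. The other 10, miR-5126 and miR-709 among them, differed by 0.64 to 1.63. Of the 20 miRNAs with the highest mean log2 signal, 5 differed by more than 2, and over all 84 miRNAs 20 did.

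**Figure D5:**
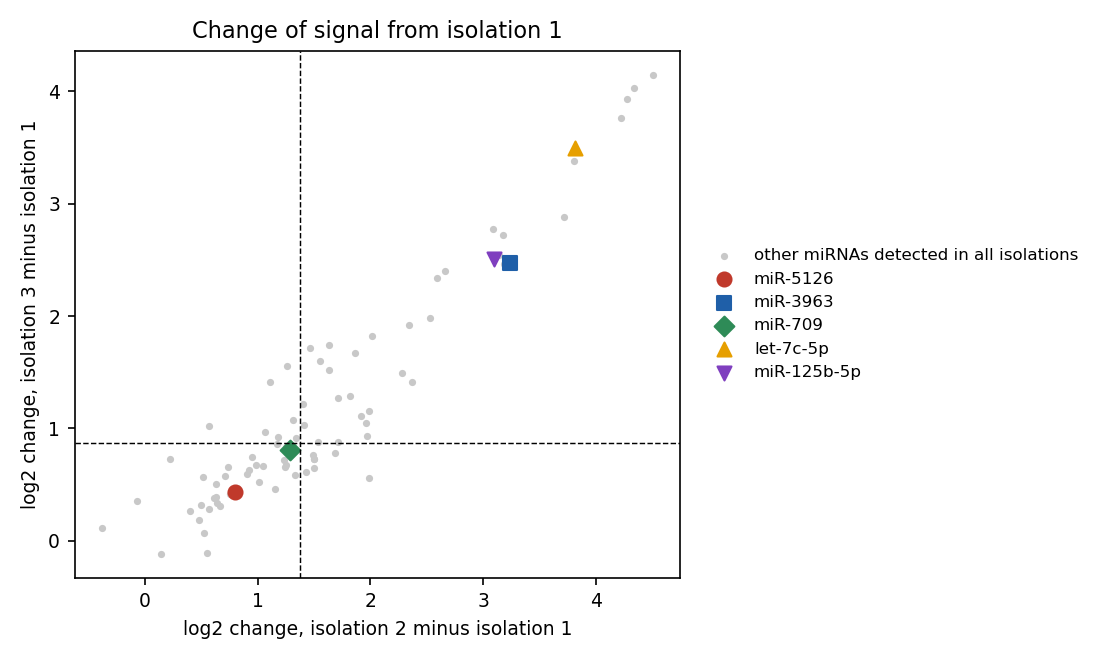
Log2 change in signal of isolation 3 minus isolation 1 (vertical axis) against isolation 2 minus isolation 1 (horizontal axis) for the 84 mouse miRNAs detected in all MV isolations; dashed lines mark the medians (0.87 and 1.37). Both axes share isolation 1, so points near a diagonal are in part fixed by it; miR-3963 (3.24 and 2.47) lies beside miR-125b-5p (3.09 and 2.51), while miR-5126 and miR-709 lie below both medians.

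For each bright miRNA, the 3 miRNAs with the most similar pattern were taken as those with the smallest Euclidean distance between log2 signals centred on their own mean, over 3 isolations and 84 miRNAs. Closest to miR-3963 were miR-720 (listed on the array as miR-720_v18.0, distance 0.0455), miR-5100 (0.122) and miR-125b-5p (0.138). miR-720 had log2 signals of 5.88, 9.06 and 8.35, and miR-5100 had 6.56, 9.70 and 9.10. Closest to miR-5126 were miR-671-5p (0.0270), miR-2861 (0.0329) and miR-1906 (0.108). Closest to miR-709 were miR-3102-5p (0.0443), miR-574-5p (0.0659) and miR-466i-5p (0.0752). In the same ordering around miR-5126 and around miR-709, miR-125b-5p came at place 71 of the 83 others. Around miR-125b-5p itself, miR-5100 (0.0360) and miR-720 (0.0952) were nearer than miR-3963 (0.138). With 3 values per miRNA this likeness is only a description of these arrays.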

How the data were processed

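The authors deposited 1 table per array with an intensity for each of 1157 features (its total gene signal, linear), with an error, the control type and whether the feature was detected, written by Agilent Feature Extraction 10.10.1.1 per the submitters' processing notes and not normalized between arrays. Undetected features carry a signal of 0.1 and an error of 1. Replicate numbers are from the sample titles.

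Places and shares were taken among mouse miRNAs called detected, within each array, and no test was run. An array error of a log2 difference combines both error-to-signal ratios in quadrature. The members, lists and rules were chosen with earlier results of these data known. The miRNAs named are the members, the comparators, those at places 10 and 11, the next above and below each member, the 3 nearest in pattern, sequence relatives and cell type lists. Alternatives were other scalings, feature sets and summaries, and each isolation left out. RefSeq held a mature sequence for 867 of the 1079 miRNAs. Functions were tested on simulated data. Python 3.11.15, numpy 2.4.6, pandas 2.3.3, matplotlib 3.10.9 and RNAfold 2.7.2 were used. The number of arrays, 3, limits the precision.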

Additional observations from a re-analysis of the deposited data

How the results depend on the processing

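With each isolation left out in turn, 54 means of signal, share, place, error ratio and difference from the comparators were computed. Of 3 values, leaving out 1 cannot move a mean by 1 SD, so these means are no test of stability. Of 54 other planned values, 37 stayed within the spread. Subtraction of the median miRNA of each array gave mean log2 values of 5.38, 5.37 and 2.86 for miR-5126, miR-3963 and miR-709, by a change of zero. Subtraction of the median change of the 84 miRNAs turned the changes from isolation 1 to isolations 2 and 3 to -0.57 and -0.43 for miR-5126 and to -0.081 and -0.059 for miR-709, and moved those of miR-3963 to 1.87 and 1.61. Isolation 3 minus isolation 2 became -0.012, -0.41 and -0.13 for miR-5126, miR-3963 and miR-709. With the brightest miRNA of each array left out of the sum, the shares were 13.6%, 14.5% and 2.32%, since less signal is summed. The difference of miR-3963 from miR-125b-5p, 3.76, was 3.64 after quantile normalization and 3.51 with the array errors set against it, outside its SD of 0.10. In an alternative chosen after seeing the data, quantile normalization, miR-125b-5p was at place 5 among the miRNAs nearest to miR-3963, in place of 3. The planned comparison of base composition with signal is void, since 56 of the 84 miRNAs detected in all isolations (66.7%) have a sequence in the table, under the 80% needed. No paired analysis was possible because there is a single group. Signals under 4.87, 4.39 and 4.41, the lowest detected in isolations 1, 2 and 3, are not resolved.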
